A study of Homo sapiens with 12 samples.

Results

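In A375 cells, an established human melanoma line, the mRNA levels of 45 genes of the cullin-RING ubiquitin ligase system were followed through treatment with SB-3CT and interferon gamma (IFN-γ). The genes were the cullins, the DCAF substrate receptors, the subunits of the COP9 signalosome, the BTBD family, and CAND1, CAND2 and DDB1. They were taken by symbol, as every row of the expression table that starts with CUL, DCAF, COPS or BTBD followed by a digit or L, together with CAND1, CAND2 and DDB1, and with COPS5 and CUL3 set aside. This rule gave 45 of the 4918 genes analysed here, whose symbols run from A1BG to FAM46B: 7 cullins, 3 cullin regulators or adaptors (CAND1, CAND2 and DDB1), 15 DCAF genes, 7 COP9 subunits and 13 BTBD genes. No measured value entered the rule.

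Cullins are the scaffolds of a large class of ubiquitin ligases. One end of the scaffold holds a RING protein that brings in the ubiquitin-loaded enzyme, and the other holds an adaptor with a substrate receptor, which picks the protein to be marked. Attachment of the small protein NEDD8 to the cullin switches the ligase on, the COP9 signalosome removes NEDD8, and CAND1 binds the bare cullin and lets receptors be exchanged. DDB1 is the adaptor of CUL4A and CUL4B, DCAF proteins are their receptors, and many proteins with a BTB domain serve as receptors of CUL3. In tumor cells these enzymes have drawn interest because the amount of PD-L1 protein is known to depend on ubiquitin ligases and on the COP9 signalosome.

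The study asked how SB-3CT, an inhibitor of the gelatinases MMP2 and MMP9, changes the transcriptome of melanoma cells, with and without IFN-γ, the cytokine that induces PD-L1. RNA was taken after 24 h from 4 groups with 3 samples each: controls that the labels give as untreated, SB-3CT, IFN-γ, and SB-3CT+IFN-γ, the last called the combination below. All groups were the same unmodified line, the treatment protocol names a vehicle alongside SB-3CT, and no dose is given for these samples. The legend of the study's figure that shows this RNA-seq describes all its experiments as independently repeated. The labels of these samples do not say whether those of a group came from separate cultures. If they did not, p-values measure only the spread between these samples, which may be technical.

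Values are FPKM, the number of fragments divided by transcript length and by library size. Changes are differences between group means of log2(FPKM + 1), a scale on which weakly expressed genes change less than their FPKM does. They were tested with limma, and a change was called at a Benjamini-Hochberg adjusted p under 0.05 over all 4918 genes. An exact permutation test between 3 samples and 3 cannot give a p under 0.1.

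Relative sequencing depth lay between 87.1% and 150.2% of the control mean, and absolute depth is unknown. The IFN-γ labels were borne out by CXCL10, an IFN-γ-induced chemokine gene, and by CD274, which encodes PD-L1: their log2 changes with IFN-γ were 6.35 and 3.88. Of 6 melanoma and melanocyte markers, CSPG4 (26.3 to 49.0 FPKM), ERBB3 (29.0 to 57.8 FPKM), AXL and EDNRB were present in every sample, whereas DCT and CAPN3, genes of the pigment lineage, stayed below 0.4 FPKM. EPCAM, CD3D, CD8A, CD14, CSF1R and CDH5, markers of epithelial, T, myeloid and endothelial cells, each stayed below 0.5 FPKM in all 12 samples. The summed level of the 6 melanoma markers was 152 to 154 FPKM in control samples, 131 to 143 with SB-3CT, 140 to 150 with IFN-γ, and 102 to 110 with both. These sums are as deposited, and the effects of scaling and transcript length described below were not removed from them. The part of this shift in the results for the combination was not tested. In bulk RNA, fewer cells expressing a gene and less of its RNA per cell cannot be told apart.

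Most of the machinery was expressed. Of the 45 genes, 36 had a mean over the 12 samples of at least 1 FPKM, and 39 were above 0 in every sample. COP9 subunits were the most abundant class, with a median of 28.5 FPKM and a range from 9.88 for COPS7B to 149 for COPS6, an inactive partner of the catalytic subunit. The cullins ran from 1.98 FPKM for CUL9 to 28.5 FPKM for CUL4A with a median of 6.97, the DCAF genes had a median of 6.98 and the BTBD genes one of 1.90. The 9 genes below 1 FPKM were DCAF17 (0.407 to 1.09 FPKM), DCAF4L1, DCAF8L2, the pseudogene DCAF13P3, BTBD8, BTBD11, BTBD16, BTBD17 and BTBD18. Leaving out DCAF17, the highest value of any of them in any sample was 0.582 FPKM, in BTBD11. DCAF13P3, DCAF8L2 and DCAF4L1 resemble DCAF13, DCAF8 and DCAF4 in sequence, so a few of their reads may be shared.

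Compared with IFN-γ alone, the combination had lower mRNA for much of the ligase machinery and not for most of the COP9 signalosome. Of the 45 genes, 21 were lower and 1, COPS8, was higher at an adjusted p under 0.05, where 31.5% of all 4918 genes were lower and 6.41% were higher. The median log2 change was -0.256 in the 45 genes and -0.088 in all genes. Lower calls were made in 5 of 7 cullins, in CAND1, in 7 of 15 DCAF genes, in 7 of 13 BTBD genes and in 1 of 7 COP9 subunits. All genes include many that are weakly expressed. With only genes of a mean of at least 1 FPKM in the fit, 25 of 36 members were lower and 1 higher. In that fit 1493 of 3145 genes were lower and 348 higher, and the median change was -0.327 in the members and -0.1985 in all genes fitted. With a threshold of 1.5 on the fold change and an unadjusted p under 0.05, 6 of the 45 were lower (BTBD3, CAND1, CUL2, CUL4B, BTBD19 and DCAF6) and 0 higher, against 6.51% and 0.956% of all genes.

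The share of lower genes has to be read with 2 measured facts. The first is the scaling: between these groups the median change of the 3123 genes with a known length and at least 1 FPKM was -0.199 as deposited, 0.021 after scaling to the median ratio (each sample over the geometric mean of all samples), and -0.007 after quantile normalization. With the median ratio, 13 of the 45 genes were lower and 5 higher, and over all genes the split moved from 1547 lower and 315 higher to 760 and 811. The second is transcript length. Changes with the combination were lower in genes with longer transcripts, with a Spearman correlation across the 3123 genes of -0.62 and across the 36 expressed members of -0.60. Genes are not independent replicates, and these values are descriptions.

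The median changes of the members lay near those of all genes of like length. Among transcripts of up to 1854 bases the median change was 0.087 in all genes and 0.065 in the 4 members. From 1855 to 3065 bases it was -0.156 and -0.205 (8 members), from 3067 to 4851 bases -0.299 and -0.308 (11 members), and from 4852 bases -0.420 and -0.447 (13 members). The median transcript of the expressed members was 4025 bases long, against 3065 in all expressed genes. With each sample's trend with length removed, 11 members were lower and 6 higher, and 5 of these 6 had a mean below 1 FPKM. Of the 4875 genes in that fit, 888 were lower and 1036 higher. What part library preparation or RNA length had in this trend was not tested.

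**Figure D1:**
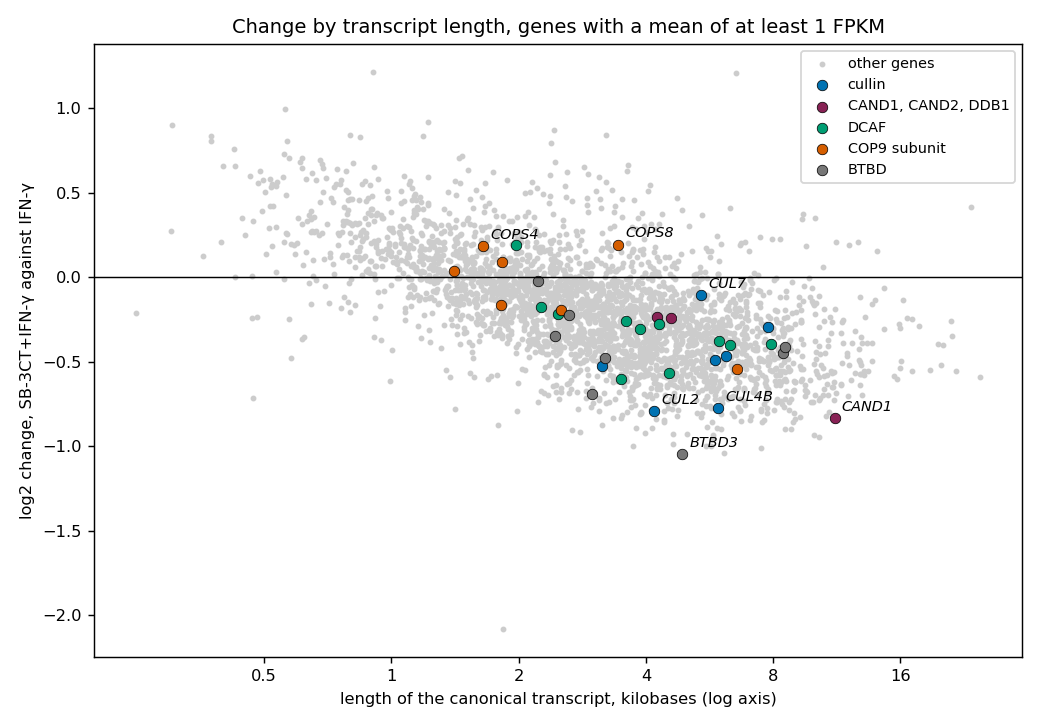
Change in mean log2(FPKM + 1) between the combination and IFN-γ (vertical axis) against the length of the canonical transcript in kilobases (horizontal log axis), for the 3123 genes with a known length and at least 1 FPKM. Grey points are other genes and colored points the 36 expressed members by class. Most members lie inside the grey cloud, which falls with length (Spearman -0.62), BTBD3 lies at its lower edge, and COPS8 lies in the upper part of the genes of its length.

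Of the 45 genes, 9 were called lower as deposited, with the median ratio, with quantile normalization and with the length trend removed: BTBD1, BTBD3, CAND1, COPS2, CUL1, CUL2, CUL4A, CUL4B and DCAF16. Each also kept its call when any of the 6 samples was left out. Over all genes these scalings, taken singly, gave 1547, 760 and 714 lower of 4918, and 888 of 4875. The share of all genes lower under all 4 was not counted, so the 9 cannot be set against it. COPS8 was called higher under all 4 scalings. It lost its call in 3 of the 6 fits that left out a sample, those without IFN-γ replicate 3, combination replicate 1 or combination replicate 3. Without IFN-γ replicate 3, 13 of the 45 genes were lower and 0 higher.

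**Figure D2:**
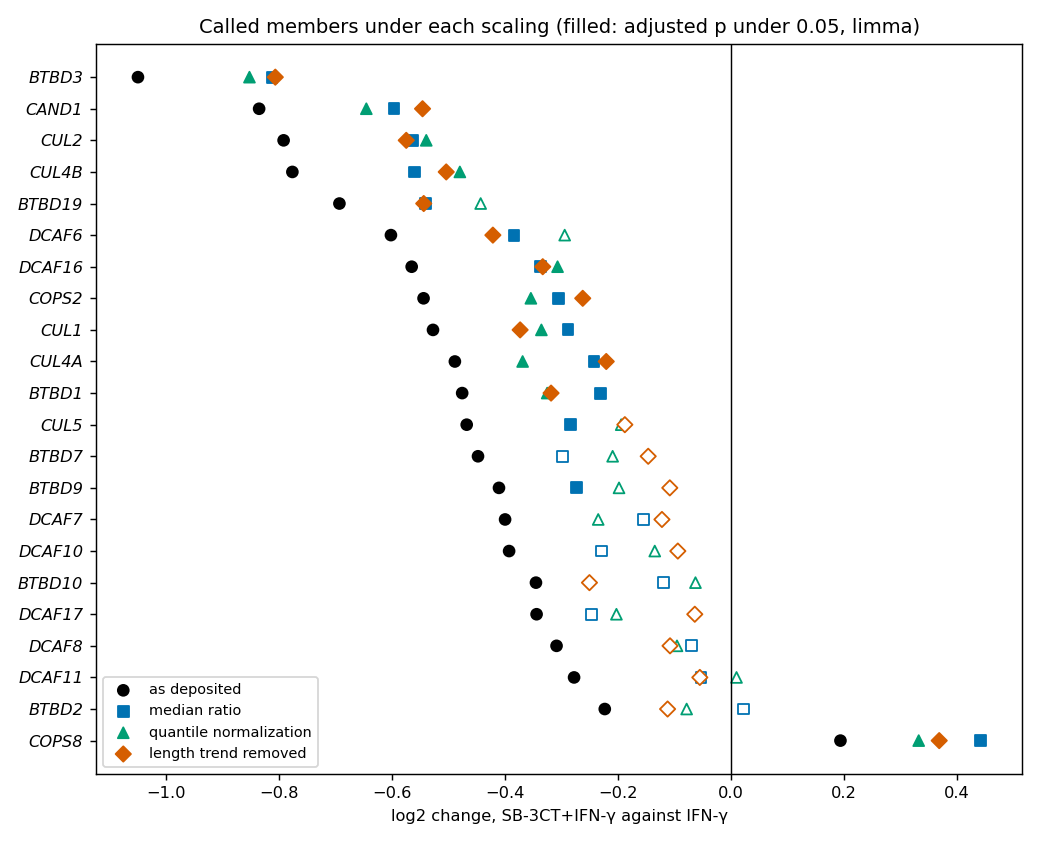
Change in mean log2(FPKM + 1) between the combination and IFN-γ (horizontal axis) for the 22 called members under the deposited scaling, the median ratio, quantile normalization and removal of the length trend; filled symbols have an adjusted p under 0.05. Every alternative lies to the right of the deposited value, and BTBD3 stays lowest, between -1.05 and -0.81.

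IFN-γ alone changed 9 members. Lower than in the controls were DCAF13 and the COP9 subunits COPS2, COPS4, COPS6 and COPS8, 5 of 45 genes where 11.0% of all genes were lower. CAND2, CUL2, BTBD3 and DCAF15 were higher, 4 of 45 where 8.46% of all genes were higher. The median change was -0.034 in the members and -0.018 in all genes. DCAF13, COPS2, COPS8, CAND2 and CUL2 kept these calls without any 1 of the samples and under all 4 scalings. BTBD3, COPS4, COPS6 and DCAF15 each lost theirs without control replicate 1 and without control replicate 2.

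SB-3CT alone lowered 6 of the 45 genes, COPS2, BTBD3, CAND1, CUL2, BTBD1 and COPS4, where 6.87% of all genes were lower, and raised 3, COPS7A, BTBD6 and DDB1, where 5.37% were higher. These calls rested on all samples being in the fit. Without control replicate 1, 2 or 3, or without SB-3CT replicate 2 or 3, limma called 0 of the 45 genes lower and at most 1 higher, with 9 to 11 lower at an unadjusted p under 0.05. The same 5 fits called 30 to 38 of all 4918 genes lower and 41 to 58 higher, in place of 338 and 264, so the loss of calls ran through the whole table. Without SB-3CT replicate 1, 8 members were lower and 2 higher. Under all 4 scalings 5 of the 6 lower calls and the 3 higher calls stayed, and COPS4 lost its call with the median ratio. No DCAF gene was called as deposited, and 4 of the 15, 2 in each direction, had an unadjusted p under 0.05.

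The interaction, the difference between the SB-3CT change in the presence and in the absence of IFN-γ, was called in 11 members. It was lower in 8, where 17.6% of all genes were lower, and higher in 3, where 4.74% were. The 8 were DCAF16, BTBD3, DDB1, CUL4A, DCAF11, CUL2, DCAF15 and DCAF8, and the 3 were COPS4, DCAF13 and COPS8. Under all 4 scalings the call stayed for DCAF16, BTBD3, CUL4A, COPS4, DCAF13 and COPS8.

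**Figure D3:**
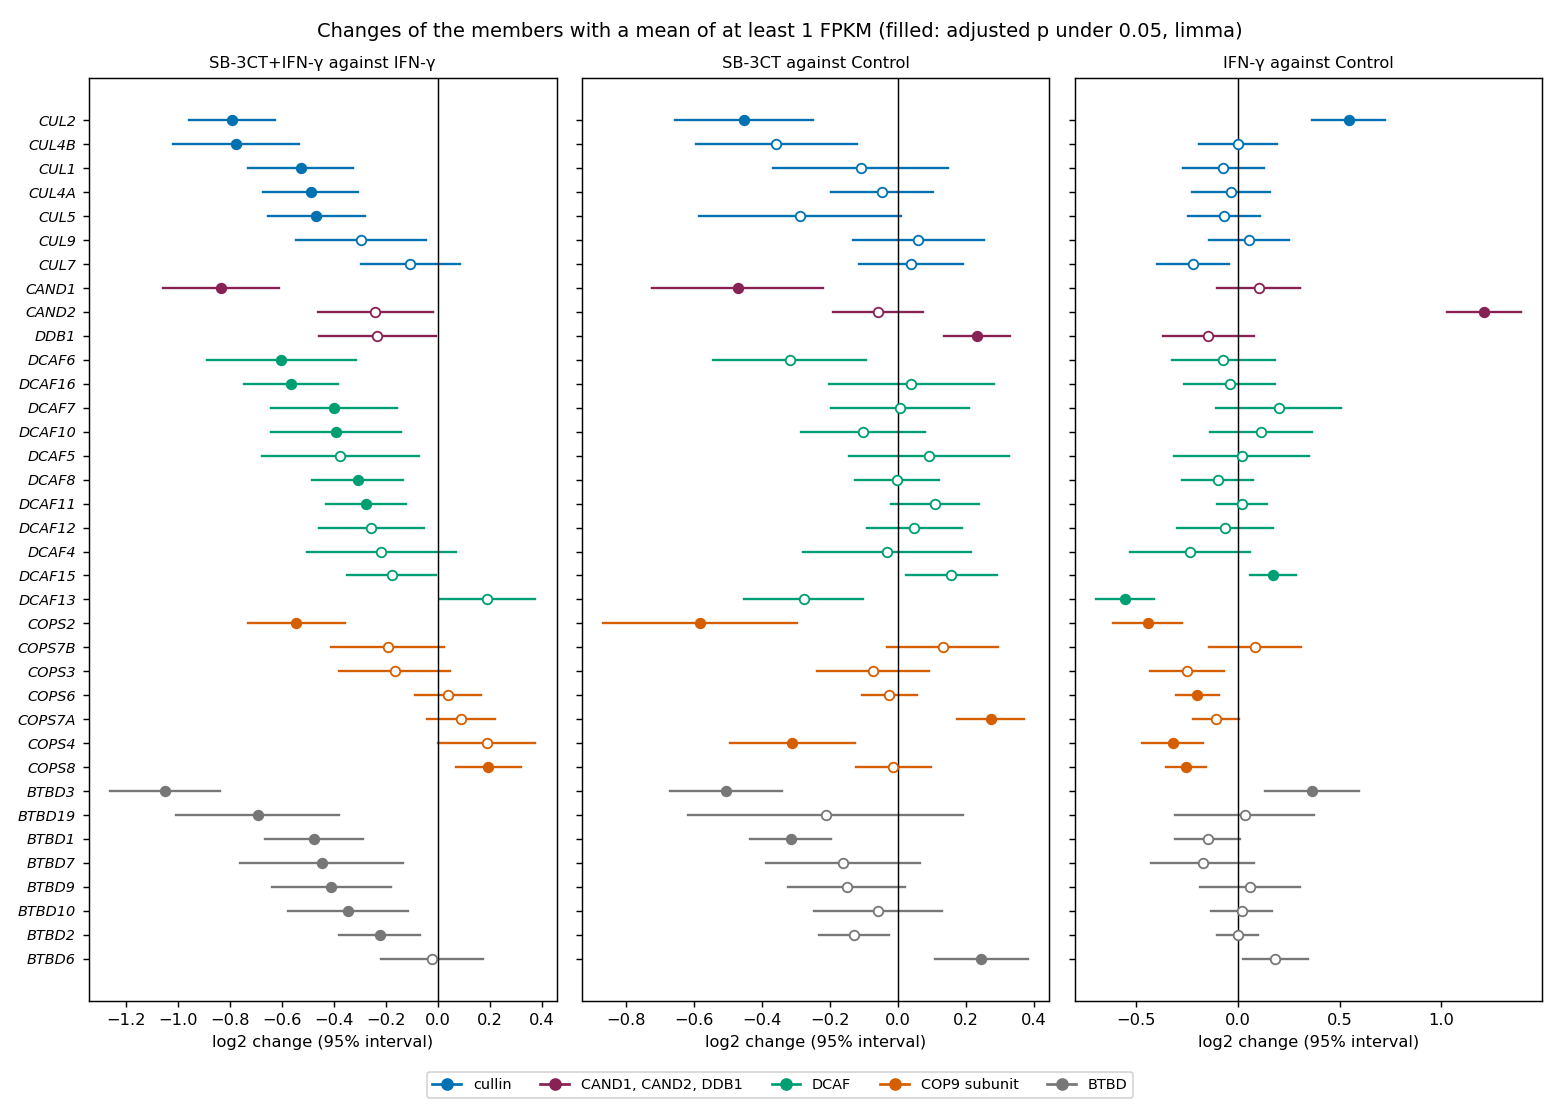
Change in mean log2(FPKM + 1) with its 95% interval (horizontal axes) for the 36 members with a mean of at least 1 FPKM, by class, in the combination against IFN-γ (left), SB-3CT against control (middle) and IFN-γ against control (right). Filled points have an adjusted p under 0.05; the cullins lie left of 0 in the left panel, and CAND2 stands apart at 1.21 in the right panel.

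Among the cullins, CUL2 responded in every comparison. CUL2, the scaffold that works with elongins and the von Hippel-Lindau receptor, lies on chromosome 10 (hg19, 35297432 to 35415934, minus strand). It was at 8.43, 7.41 and 8.52 FPKM in control cells, 6.28, 5.22 and 5.51 with SB-3CT, 13.2, 11.8 and 11.96 with IFN-γ, and 6.46, 6.57 and 7.01 with the combination. All IFN-γ samples lay above all controls, and the SB-3CT and combination samples lay below them. IFN-γ raised CUL2 by 0.55 on the log2 scale (95% interval 0.37 to 0.72, adjusted p = 0.00455, limma). SB-3CT lowered it both without IFN-γ (-0.45, -0.66 to -0.25) and with it (-0.79, -0.96 to -0.63). The interaction was -0.34 (adjusted p = 0.0443) and was not called after scaling by the median ratio (-0.15, adjusted p = 0.289).

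CUL4A and CUL4B, paralogous scaffolds that bind DDB1, were both lower with the combination. CUL4A (chromosome 13 of hg19, 113862507 to 113921422) was at 31.8, 30.2 and 32.2 FPKM in control cells, 33.3, 28.5 and 29.4 with SB-3CT, 34.1, 27.6 and 30.4 with IFN-γ, and 21.3, 21.2 and 22.1 with the combination. Only the combination samples stood apart from the other 3 groups. CUL4B (chromosome X of hg19, 119639775 to 119737929) was at 8.77, 8.27 and 8.32 FPKM, 7.59, 5.72 and 5.95, 9.17, 7.50 and 8.76, and 4.11, 5.11 and 4.38 FPKM in the same order of groups. Against IFN-γ alone, CUL4A fell by 0.49 (adjusted p = 0.00368) and CUL4B fell by 0.78 (adjusted p = 0.00247) on the log2 scale. With SB-3CT alone the change of CUL4A was -0.05 (95% interval -0.20 to 0.10), and that of CUL4B was -0.36 (-0.59 to -0.12, adjusted p = 0.0602). The interaction was -0.44 for CUL4A (adjusted p = 0.015) and -0.42 for CUL4B (adjusted p = 0.0648).

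CUL1, the scaffold of the SCF ligases, was at 19.2, 17.9 and 20.3 FPKM in control cells, 21.2, 16.2 and 15.9 with SB-3CT, 19.7, 16.3 and 18.5 with IFN-γ, and 11.7, 13.3 and 11.8 with the combination. Its change against IFN-γ was -0.53 (95% interval -0.73 to -0.33, adjusted p = 0.00392). CUL5, which pairs with receptors that carry a SOCS box, was at 3.88, 3.42 and 3.62 FPKM in control cells, 3.45, 2.83 and 2.21 with SB-3CT, 3.39, 3.25 and 3.63 with IFN-γ, and 2.26, 2.22 and 2.12 with the combination. Both genes had combination samples below every IFN-γ sample. The change of CUL5 was -0.47 (adjusted p = 0.00434), and with the length trend removed it was -0.19 (adjusted p = 0.0657).

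The atypical cullins CUL7 and CUL9 were not called in any comparison as deposited. CUL7, part of the 3M complex, was at 5.83, 5.46 and 5.48 FPKM in control cells, 5.77, 5.59 and 5.95 with SB-3CT, 4.83, 4.22 and 4.91 with IFN-γ, and 4.27, 4.28 and 4.18 with the combination. Both groups with IFN-γ lay below both groups without it, with a change of -0.22 for IFN-γ against control (adjusted p = 0.0852), which was called after quantile normalization (adjusted p = 0.0198) and with the length trend removed (adjusted p = 0.0176). CUL9, a large cytoplasmic protein known to bind p53, was at 1.96, 1.98 and 2.14, 2.32, 1.93 and 2.22, 2.35, 1.86 and 2.24, and 1.66, 1.77 and 1.28 FPKM in that order. Its change with the combination was -0.29 (95% interval -0.54 to -0.05, adjusted p = 0.0651).

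CAND1, the exchange factor, was among the most strongly lowered members. It lies on chromosome 12 (hg19, 67663138 to 67713733) and was at 20.8, 19.6 and 19.7 FPKM in control cells, 17.1, 12.9 and 12.8 with SB-3CT, 23.6, 18.9 and 22.3 with IFN-γ, and 10.6, 12.3 and 12.01 with the combination. The SB-3CT samples lay below the controls and the combination samples below the IFN-γ samples. Its change was -0.83 with the combination against IFN-γ (adjusted p = 0.00209) and -0.47 with SB-3CT against control (adjusted p = 0.0341). The interaction was -0.36 and was not called (adjusted p = 0.114). At 11176 bases CAND1 had the longest transcript of the members, and its change with the length trend removed was -0.55.

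CAND2, the paralog of CAND1 best known from muscle, had the largest IFN-γ response of the 45 genes in either direction. It lies on chromosome 3 (hg19, 12837971 to 12876303) and was at 0.290, 0.317 and 0.391 FPKM in control cells, 0.202, 0.275 and 0.366 with SB-3CT, 2.15, 1.81 and 2.31 with IFN-γ, and 1.77, 1.61 and 1.45 with the combination. The mean FPKM was 6.28 times as high with IFN-γ as in the controls, and the groups with and without IFN-γ did not overlap. IFN-γ raised CAND2 by 1.21 on the log2 scale (95% interval 1.03 to 1.39, adjusted p = 0.000197). The change of the combination against IFN-γ was -0.24 (95% interval -0.46 to -0.02, adjusted p = 0.083). With IFN-γ the level of CAND2 was still below that of CAND1, which was at 21.6 ± 2.4 FPKM (SD, n = 3) against 2.09 ± 0.25 FPKM (SD, n = 3).

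The promoters of CAND2 and CUL2 are shown as those of the members called higher with IFN-γ under all 4 scalings and without any 1 of the samples. The sequences are the 250 bases before the start of each gene in RefSeq (GRCh38.p14, a build other than the hg19 of the files), 5′ to 3′ on the gene's strand, in lower case with no letters marked. They lie at chr3:12796430-12796679 (plus strand) and chr10:35090615-35090864 (minus strand).
CAND2: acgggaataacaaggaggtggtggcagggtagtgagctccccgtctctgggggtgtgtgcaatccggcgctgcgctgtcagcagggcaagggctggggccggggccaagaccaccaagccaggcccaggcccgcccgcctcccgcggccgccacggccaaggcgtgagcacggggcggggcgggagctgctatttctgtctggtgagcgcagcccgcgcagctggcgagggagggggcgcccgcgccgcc
CUL2: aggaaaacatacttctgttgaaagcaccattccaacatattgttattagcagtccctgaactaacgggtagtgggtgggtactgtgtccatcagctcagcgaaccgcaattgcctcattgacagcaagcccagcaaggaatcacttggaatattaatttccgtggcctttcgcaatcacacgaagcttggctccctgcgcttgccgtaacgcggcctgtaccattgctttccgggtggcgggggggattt

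The CAND2 sequence is 73.6% G and C and that of CUL2 50.8%, against a median of 58.0% over 35116 RefSeq promoters and of 60.4% over the 39 members matched. These shares describe the sequences, and nothing about binding was measured.

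DDB1, the adaptor that joins DCAF receptors to CUL4, differed in its SB-3CT change with and without IFN-γ. DDB1 (chromosome 11 of hg19, 61066923 to 61110068) was at 67.5, 63.2 and 65.5 FPKM in control cells, 78.9, 75.7 and 76.3 with SB-3CT, 66.1, 51.4 and 60.6 with IFN-γ, and 53.3, 50.4 and 46.8 with the combination. Every SB-3CT sample lay above every control, while the combination overlapped IFN-γ alone. SB-3CT alone raised DDB1 by 0.23 (95% interval 0.14 to 0.33, adjusted p = 0.0188). The change was -0.23 with the combination against IFN-γ (-0.46 to -0.01, adjusted p = 0.0977). Their difference was -0.46 (adjusted p = 0.0153), and with the median ratio it was -0.25 (adjusted p = 0.0661).

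**Figure D4:**
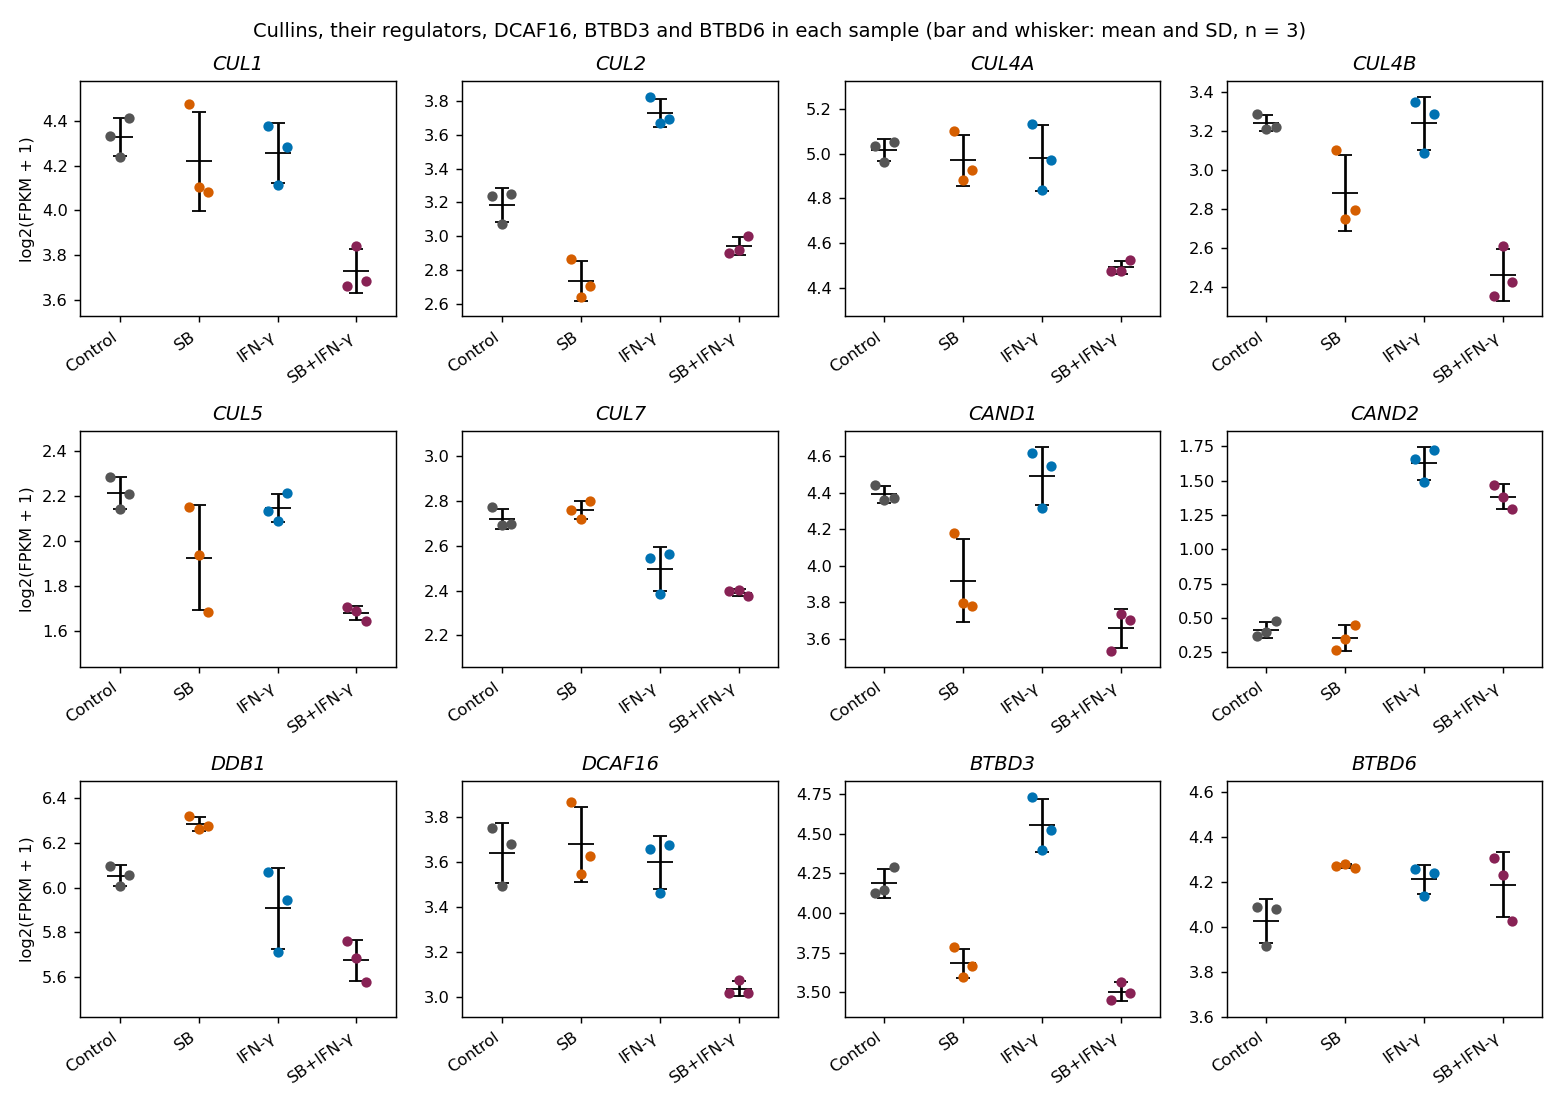
log2(FPKM + 1) in each of the 12 samples (points) with the mean and SD of each group (bar and whiskers, n = 3) for CUL1, CUL2, CUL4A, CUL4B, CUL5, CUL7, CAND1, CAND2, DDB1, DCAF16, BTBD3 and BTBD6; SB stands for SB-3CT, and each panel has its own vertical range of at least 1 unit. CUL2, BTBD3 and CAND2 rise with IFN-γ, CUL4A and DCAF16 are low only in the combination, and DDB1 is high with SB-3CT alone.

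Of the 15 DCAF genes, 7 were lower with the combination against IFN-γ, where 31.5% of all genes were lower, and 0 were higher (1 at an unadjusted p under 0.05, limma). With the median ratio 2 were lower, DCAF6 and DCAF16, and 1 was higher, DCAF13 (0.44, adjusted p = 0.00851). As deposited, their median change was -0.277 with the combination against IFN-γ and -0.003 with SB-3CT against control. DCAF16, a receptor used by covalent protein degraders, gave the largest interaction. DCAF16 (chromosome 4 of hg19, 17802278 to 17812381) was at 12.5, 10.2 and 11.8 FPKM in control cells, 13.6, 10.7 and 11.3 with SB-3CT, 11.6, 10.03 and 11.8 with IFN-γ, and 7.08, 7.41 and 7.10 with the combination. The 9 samples outside the combination overlapped and all lay above it. Its change was -0.56 against IFN-γ (adjusted p = 0.00262) and 0.04 with SB-3CT alone (95% interval -0.20 to 0.28), with an interaction of -0.60 (95% interval -0.90 to -0.31, adjusted p = 0.011).

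DCAF11 was at 7.96, 7.71 and 8.20 FPKM in control cells, 8.49, 8.81 and 8.69 with SB-3CT, 7.95, 8.02 and 8.29 with IFN-γ, and 6.79, 6.46 and 6.25 with the combination. The combination lay below the other groups, with a change of -0.28 against IFN-γ (adjusted p = 0.0141) that was -0.05 with the median ratio and 0.01 after quantile normalization. DCAF15, the receptor engaged by aryl sulfonamide drugs such as indisulam, was at 19.4, 19.0 and 18.9, 20.5, 20.6 and 23.2, 21.9, 20.6 and 22.4, and 21.0, 17.9 and 18.3 FPKM in the same order. IFN-γ raised it by 0.17 (95% interval 0.06 to 0.29, adjusted p = 0.0483), a call that was lost in 5 of the 6 fits that left out a sample. Also lower with the combination were DCAF6 (-0.60), DCAF7 (-0.40), DCAF10 (-0.39), DCAF17 (-0.34) and DCAF8 (-0.31). Of these, only DCAF6 kept its call with the median ratio and with the length trend removed. After quantile normalization DCAF6 was not called either (-0.29, adjusted p = 0.0739, limma).

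DCAF13, which is also known for a role in ribosomal RNA processing, had an interaction of the opposite sign to the 4 other receptors called for it. It was at 58.5, 53.9 and 50.6 FPKM in control cells, 48.9, 41.7 and 43.5 with SB-3CT, 36.6, 35.9 and 37.3 with IFN-γ, and 36.9, 44.6 and 44.3 with the combination. All IFN-γ samples lay below all controls, and the combination overlapped IFN-γ alone. IFN-γ lowered DCAF13 by 0.56 (95% interval of the change -0.70 to -0.41, adjusted p = 0.00183). SB-3CT gave a change of -0.28 without IFN-γ (adjusted p = 0.0544) and 0.19 with it (adjusted p = 0.0978), an interaction of 0.47 (95% interval 0.21 to 0.72, adjusted p = 0.0169).

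Of the COP9 signalosome, which removes NEDD8 from cullins, COPS2, COPS4, COPS6 and COPS8 were lower with IFN-γ against control. These are 4 of the 7 subunit genes followed here, where 11.0% of all genes were lower. Of the 7, 0 were higher (0 also at an unadjusted p under 0.05, limma), and the median change was -0.251. With the median ratio 2 of the 7, COPS2 and COPS8, were called lower, and COPS4 (-0.27, adjusted p = 0.0539) and COPS6 were not. With the combination against IFN-γ, 1 was lower, 1 higher and the median change was 0.040, against -0.488 in the cullins. Transcript lengths differ within the complex: COPS3, COPS4, COPS6 and COPS7A have 1404 to 1831 bases, COPS7B 2513, COPS8 3438 and COPS2 6576, and the cullins have 3147 to 7759. For the combination against IFN-γ with the median ratio, COPS4, COPS6 and COPS7A were called higher as well, and after removal of the length trend COPS8 was the only subunit called higher.

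COPS8 was at 30.4, 30.8 and 29.3 FPKM in control cells, 29.0, 29.3 and 31.4 with SB-3CT, 25.7, 25.2 and 24.4 with IFN-γ, and 28.9, 27.7 and 30.1 with the combination. The IFN-γ samples were the lowest of all 12, and the combination samples lay within or near the range of the controls. COPS8 fell by 0.25 with IFN-γ (adjusted p = 0.00875), and its change from there to the combination was 0.19 (95% interval 0.07 to 0.32, adjusted p = 0.0249).

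COPS4, a structural subunit, was at 24.6, 22.6 and 21.9 FPKM in control cells, 18.2, 16.7 and 20.3 with SB-3CT, 17.2, 18.5 and 19.0 with IFN-γ, and 18.6, 21.8 and 22.3 with the combination. Either agent alone gave lower samples than the controls, and the combination overlapped both the controls and IFN-γ. COPS4 fell by 0.31 with SB-3CT (adjusted p = 0.0449, limma) and fell by 0.32 with IFN-γ (adjusted p = 0.0166). The SB-3CT call was lost with the median ratio (adjusted p = 0.0621) and in all 6 fits that left out a sample. The IFN-γ call was lost with the median ratio (adjusted p = 0.0539) and in 2 of 6 such fits. With the combination against IFN-γ its change was 0.19 (adjusted p = 0.108), and the interaction was 0.50 (95% interval 0.24 to 0.75, adjusted p = 0.0142), the largest of the 45 genes in that direction.

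COPS2, the subunit that grips the cullin, was the exception within the complex. COPS2 (chromosome 15 of hg19, 49398265 to 49447858) was at 25.7, 24.9 and 23.3 FPKM in control cells, 20.0, 15.0 and 13.9 with SB-3CT, 18.9, 16.2 and 18.4 with IFN-γ, and 11.4, 12.9 and 11.4 with the combination. Each agent lowered it and the combination was lowest. Its changes were -0.58 with SB-3CT (adjusted p = 0.0288), -0.44 with IFN-γ (adjusted p = 0.00823) and -0.54 from IFN-γ to the combination (adjusted p = 0.00298), with an interaction of 0.04 (95% interval -0.31 to 0.38). Its transcript, at 6576 bases, is the longest of the 7 subunits.

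COPS6 was at 159, 157 and 160.1 FPKM in control cells, 156, 156 and 156 with SB-3CT, 144, 137 and 133 with IFN-γ, and 147, 137 and 142 with the combination. It was lower with IFN-γ by a change of -0.20 (adjusted p = 0.0244), which was not called with the median ratio (-0.15, adjusted p = 0.0582). COPS7A and COPS7B are alternative versions of the same subunit. COPS7A was at 60.1, 56.8 and 57.8 FPKM in control cells, 68.0, 71.7 and 71.9 with SB-3CT, 55.2, 51.3 and 55.5 with IFN-γ, and 59.2, 58.7 and 54.7 with the combination. SB-3CT alone raised COPS7A by 0.27 (95% interval 0.17 to 0.37, adjusted p = 0.0135), and its samples were the highest of all 12. COPS7B (8.51 to 11.4 FPKM) and COPS3 (29.8 to 49.9 FPKM) were not called in any comparison as deposited, and COPS3 was called lower with IFN-γ after quantile normalization (adjusted p = 0.0338).

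**Figure D5:**
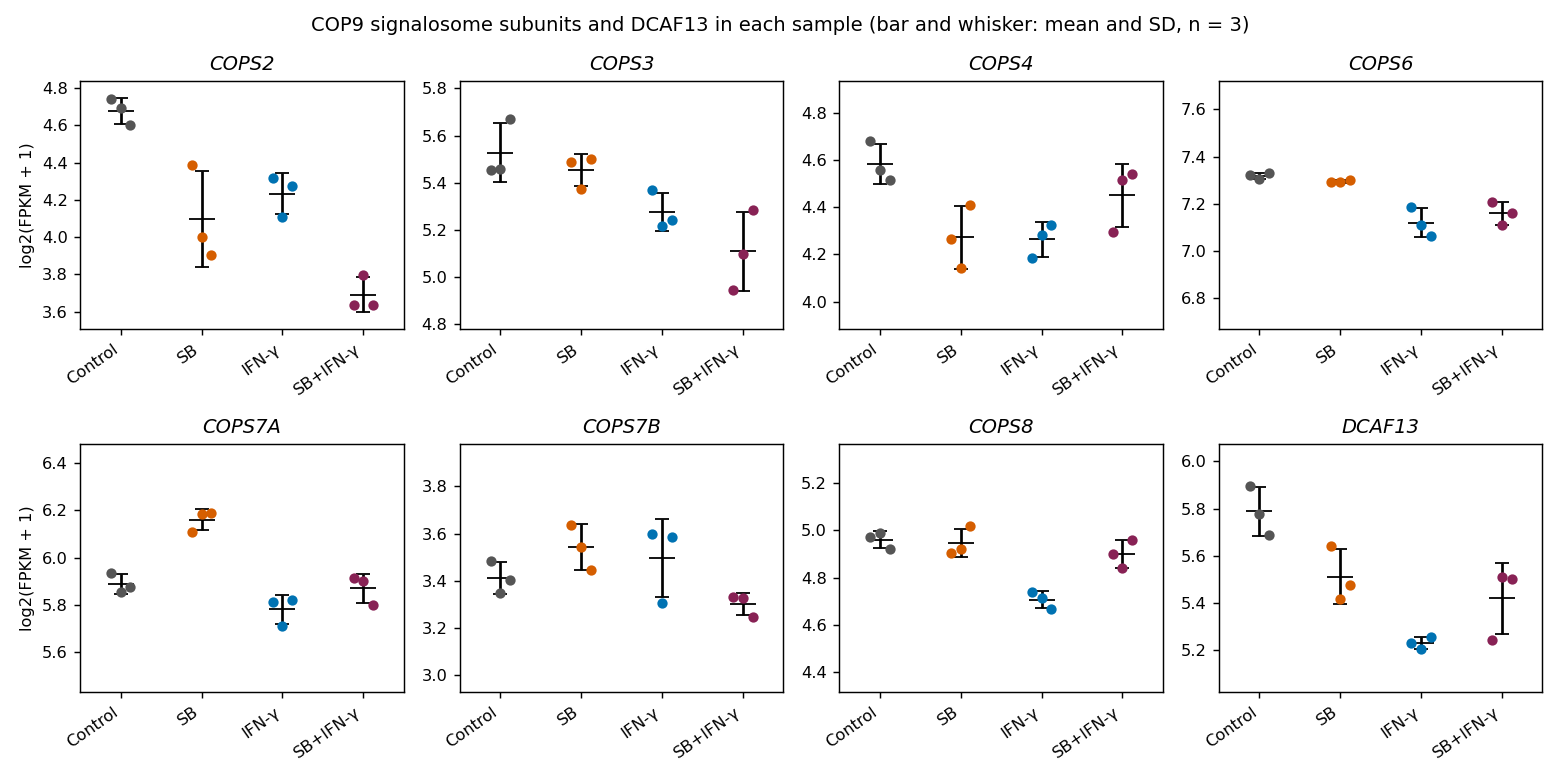
log2(FPKM + 1) in each of the 12 samples (points) with the mean and SD of each group (bar and whiskers, n = 3) for the 7 COP9 subunits and DCAF13; SB stands for SB-3CT, and each panel has its own vertical range of at least 1 unit. COPS2 steps down to its lowest level in the combination, whereas COPS4, COPS8 and DCAF13 are lower with IFN-γ alone and closer to the controls in the combination.

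BTBD3, known for shaping the dendrites of neurons, had the largest fall of the 45 genes with the combination. BTBD3 (chromosome 20 of hg19, 11871371 to 11907257) was at 16.4, 16.7 and 18.6 FPKM in control cells, 12.8, 11.1 and 11.7 with SB-3CT, 25.6, 20.1 and 22.1 with IFN-γ, and 9.92, 10.8 and 10.3 with the combination. The 4 groups did not overlap. Like CUL2, it was raised by IFN-γ (0.37, adjusted p = 0.0431) and lowered by SB-3CT, by a change of -0.50 alone (adjusted p = 0.00946) and of -1.05 on top of IFN-γ (95% interval -1.26 to -0.84, adjusted p = 0.00194). The interaction was -0.54 (adjusted p = 0.0107). The call with IFN-γ was lost in 5 of the 6 fits that left out a sample.

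BTBD1 and BTBD2 are paralogs known to bind topoisomerase I. BTBD1 was at 29.6, 29.1 and 30.1 FPKM in control cells, 25.1, 22.6 and 23.1 with SB-3CT, 29.3, 24.7 and 26.1 with IFN-γ, and 17.5, 20.0 and 19.2 with the combination. SB-3CT lowered it in both settings, by a change of -0.32 alone (adjusted p = 0.0148) and of -0.48 on top of IFN-γ (adjusted p = 0.00423). BTBD19 was at 1.94, 2.48 and 3.25 FPKM in control cells, 2.44, 1.49 and 2.27 with SB-3CT, 2.45, 2.54 and 2.81 with IFN-γ, and 1.63, 0.846 and 1.27 with the combination. Its change against IFN-γ was -0.69 (95% interval -1.01 to -0.38, adjusted p = 0.00658), and after quantile normalization it was not called (-0.44, adjusted p = 0.074). Also lower with the combination were BTBD7 (-0.45), BTBD9 (-0.41), BTBD10 (-0.34) and BTBD2 (-0.22), of which only BTBD9 kept its call with the median ratio, and none of the 4 did with the length trend removed.

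BTBD6, a receptor of CUL3, was at 16.0, 14.1 and 15.9 FPKM in control cells, 18.3, 18.4 and 18.2 with SB-3CT, 18.1, 16.6 and 17.9 with IFN-γ, and 18.8, 17.8 and 15.3 with the combination. The controls lay below the SB-3CT samples, and the combination overlapped every other group. SB-3CT alone raised BTBD6 by 0.25 (95% interval 0.11 to 0.38, adjusted p = 0.0388), and with the combination against IFN-γ its change was -0.02 (-0.22 to 0.17). The call with SB-3CT alone was lost in all 6 fits that left out a sample.

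Lists of related genes outside the 45, for the combination against IFN-γ were also counted, to be read against 31.5% of all genes lower and 6.41% higher. Of 9 receptors and partners of CUL4 beyond the DCAF genes, 5 were lower and 1 higher. DTL, which directs the destruction of CDT1, changed by -0.58 (8.32 ± 0.50 FPKM with the combination and 12.9 ± 1.2 with IFN-γ, SD, n = 3), and ERCC8, the receptor of transcription-coupled repair, changed by 0.37. Of 9 genes of neddylation and ubiquitin transfer, 4 were lower, with CACUL1 at -0.57, and 2 higher, with CDC34, the ubiquitin-conjugating enzyme of SCF ligases, at 0.34. Of 4 receptors and cofactors of SCF, 1 was lower, the F-box gene CCNF (-0.39), and 2 were higher, with CKS2 at 0.64.

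The anaphase-promoting complex, a ligase with a distant cullin-like scaffold, had 6 of 15 genes lower and 3 higher. CDC27 changed by -0.72 and CDC26, a small partner of the complex, by 0.45. Of 13 receptors of CUL2 and CUL5, 4 were lower and 0 higher (0 also at an unadjusted p under 0.05), with APPBP2 at -0.46. Of 8 other BTB genes, 4 were lower and 0 higher (0 also at an unadjusted p under 0.05). ANKFY1, which acts on endosomes, changed by -1.01 there, from 11.7 ± 1.3 to 5.50 ± 2.0 FPKM (SD, n = 3), and by 0.69 with IFN-γ against control. COMMD genes, whose products bind cullins, had 0 of 10 lower (0 also at an unadjusted p under 0.05, limma) and 2 higher, with COMMD6 at 0.56. The median changes ran from -0.290 in the CUL4 receptors to 0.105 in the SCF list. All these counts and changes are as deposited. Counts by list were not made under the other scalings or with the length trend removed. The limits of scaling and transcript length given for the members therefore apply to the lists as well, and their part in the differences between lists was not tested.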

How the data were processed

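Reads (150-base paired-end, Illumina) were aligned by the authors to hg19 with HISAT2 2.0.5, and FPKM was computed with StringTie 1.3.3; the annotation and any use of strand are not given in the sources used here. The values deposited by the authors are log2 values on the scale log2(FPKM + 1), reaching 12.16, with summed FPKM of 121928 to 129692 per sample. The planned tests took the logarithm of FPKM, a step not needed here. Each column was assigned to its sample by name, and 0 columns were left unused. Whole reads leave steps in FPKM below 0.15, which gave relative depth between the 66 pairs of samples to within 2.3e-05 on the log2 scale. Without absolute depth, counting error cannot be given.

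Tests between groups used limma 3.58.1 under R 4.3.3 (lmFit, eBayes with a variance trend, unpaired, each fit holding only the 3 + 3 samples compared), two-sided, with Benjamini-Hochberg adjustment over 4918 genes. The interaction was fitted over all 12 samples. Simulated data for 4918 genes had noise drawn independently for each gene. From the genes with a mean log2 value above 1, 200 were given a log2 change of 1. Of the 200, 98.5% were recovered for the combination against IFN-γ, 97.5% for SB-3CT, 98.0% for IFN-γ and 98.5% for the interaction. Other genes called numbered 13, 4, 13 and 4, and 0 were called with no change simulated. Smaller changes, and changes of genes below that level, were not simulated.

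The members and gene lists were chosen with earlier results of these data known. The rule that gave the members used gene symbols only, and no measured value entered it. Given with values per sample were CUL1, CUL2, CUL4A, CUL4B, CUL5, CUL7, CUL9, DDB1, CAND1, CAND2 and, in each of the 4 comparisons, the 5 largest falls and 5 largest rises among called members with a mean of at least 1 FPKM in a group compared; from each list, the called genes with the largest fall and rise with the combination. Positions and transcript lengths came from GENCODE 44 mapped to GRCh37, which held 4458 of the symbols and 417 more under a newer name. Whether replicate numbers pair the samples is not known. Correlations between the deviations of samples with the same number lay between -0.07 and 0.17, which cannot settle it with 3 samples per group. Alternatives were scaling by the median ratio, quantile normalization, a pseudocount of 0.1, a mean of at least 1 FPKM, all 4 groups in one fit, a replicate block, eBayes without trend, removal of the trend with transcript length in each sample, leaving out each sample, and a fold change over 1.5 with an unadjusted p under 0.05.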

Additional observations from a re-analysis of the deposited data

Results flagged for a closer look

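The SB-3CT change of 11 members differed with and without IFN-γ by the interaction term of limma over 12 samples (adjusted p under 0.05). Each value is the change with IFN-γ minus the change without it, on the log2 scale. It was lower for DCAF16 (-0.60, adjusted p = 0.011), BTBD3 (-0.54), DDB1 (-0.46), CUL4A (-0.44), DCAF11 (-0.39, adjusted p = 0.00653), CUL2 (-0.34), DCAF15 (-0.33, adjusted p = 0.0261) and DCAF8 (-0.31, adjusted p = 0.0314). It was higher for COPS8 (0.21, adjusted p = 0.0433), DCAF13 (0.47) and COPS4 (0.50). These are 8 and 3 of the 45 genes, where 17.6% of all genes were lower and 4.74% were higher. The median interaction of expressed genes was -0.193 as deposited and -0.014 with the median ratio. CUL2, DCAF8, DCAF11 and DCAF15 lost the call with the median ratio, with quantile normalization and with the length trend removed, and DDB1 lost it with the median ratio. COPS8 lost it in 9 of the 12 fits that left out a sample. DCAF16, BTBD3, CUL4A, COPS4 and DCAF13 kept it in all 19 alternatives. No group had 4 samples, so single samples were not tested for standing apart.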

How the results depend on the processing

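With the combination against IFN-γ, 21 members were lower and 1 higher; the median ratio gave 13 and 5, quantile normalization 9 and 4, removal of the length trend 11 and 6, and a fold change over 1.5 with an unadjusted p under 0.05 gave 6 and 0. Leaving out a sample gave 13 to 26 lower and 0 to 2 higher, with 13 and 0 without IFN-γ replicate 3. For SB-3CT against control (6 and 3), leaving out a sample gave 0 to 8 and 0 to 2, and the fold threshold 0 and 0. For IFN-γ against control (5 and 4), the median ratio gave 3 lower, leaving out a sample gave 3 to 6 and 2 to 4, and the fold threshold 0 and 1. For the interaction (8 and 3), the median ratio gave 3 lower, quantile normalization 4, removal of the length trend 4 and the fold threshold 1 lower and 0 higher. A mean of at least 1 FPKM gave 15 lower of 36 members, in a fit where 988 of 3177 genes were lower. Leaving out a sample gave 5 to 19 lower and 2 to 3 higher, with 19 lower without IFN-γ replicate 2. The replicate block used replicate numbers whose pairing is not known. It gave 17 lower and 0 higher for the combination, 6 and 2 for SB-3CT, 3 and 2 for IFN-γ and 10 and 2 for the interaction. Over all genes with SB-3CT the block gave 133 lower and 126 higher in place of 338 and 264. Among the members called as deposited in the combination against IFN-γ, the direction changed for DCAF11 (0.01 after quantile normalization, adjusted p = 0.934) and BTBD2 (0.02 with the median ratio, adjusted p = 0.845). Members not called as deposited changed direction as well. Examples are CUL7 (-0.11 as deposited, 0.19 after quantile normalization) and BTBD8 (-0.13 as deposited, 0.16 with the length trend removed, adjusted p = 0.0258, limma). Over all genes, 1547 were lower and 315 higher as deposited, and 888 lower with 1036 higher after removal of the length trend. Apart from the choices of scaling and of samples, which act by construction, the cause was not tested. Without depth in reads, genes below 1 FPKM cannot be given a counting error.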
